A study of Mus musculus with 12 samples.

Results

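The nuclear-encoded subunits of the respiratory chain and the ATP synthase were followed in 12 mouse livers, 3 in each of 4 groups measured by bulk RNA-seq. All mice were male C57BL/6N carrying floxed Elavl1 alleles (HuR flox/flox) and, by the labels, were 4 to 6 months old when injected. The groups labelled HuRHep-/- had received AAV8-Tbg-Cre, a virus that drives Cre recombinase from a hepatocyte promoter, and the WT groups AAV8-Tbg-null. One pair of groups was fed normal chow and the other, for 16 weeks, the HFCF diet, in which fat gave 40% and fructose 20% of the energy and cholesterol was added at 2%. The study's methods instead describe an albumin-Cre cross and younger mice, and no value here tells the 2 accounts apart. Both promoters are chosen to drive Cre in hepatocytes, and recombination itself was not measured here.

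The subunit genes were taken by name from the genes listed in both deposited count tables. Names of the Nduf, Sdh, Uqcr, Cyc1, Cycs, Cox4 to Cox8 and Atp5 families were kept and those marked as pseudogenes left out, which gave 84 genes of 20093. They comprised 37 genes of complex I, 4 of complex II, 9 of complex III, cytochrome c (Cycs), 16 of complex IV and 17 of complex V. The rule follows names, so it holds some genes that are not subunits of the named complex. Ndufa4 is now placed in complex IV, Cox7a2l is a factor of supercomplex assembly, and Atp5s and Atp5sl encode proteins that are not part of the ATP synthase itself.

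Complex I (NADH dehydrogenase) and complex II (succinate dehydrogenase) pass electrons to ubiquinone, complex III passes them to cytochrome c, and complex IV (cytochrome c oxidase) passes them to oxygen. Complexes I, III and IV pump protons across the inner mitochondrial membrane, and complex V (ATP synthase) uses the gradient to make ATP. The liver relies on this chain for the oxidation of fatty acids, and most of its subunits are encoded in the nucleus, translated in the cytosol and imported. HuR, the product of Elavl1, is an RNA-binding protein of AU-rich transcripts.

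Library depth lay between 30071731 and 35949203 counts on genes. Values are given as CPM, the depth-scaled count with TMM factors, or as CPM per kb of transcript where genes are compared with each other. Within groups, 2 chow libraries stood apart in the subunit genes, WT replicate 2 on the low side and HuRHep-/- replicate 3 on the high side, and HFCF WT replicate 3 differed from the HFCF livers labelled HuRHep-/- (chi-square per degree of freedom 46.8 to 64.5) by less than from HFCF WT replicate 2 (89.3), while its value against HFCF WT replicate 1 was 47.6. HFCF WT replicate 2 stood apart in genes that were higher in the other HFCF libraries, with Col1a1 at 4.88 CPM beside 30.5 and 33.4 CPM in WT replicates 1 and 3. No pair of libraries agreed within sampling noise. The targeted gene was checked first. Elavl1 stood at 30.9, 29.3 and 30.99 CPM in chow WT livers and at 42.8, 39.2 and 38.8 CPM in chow livers labelled HuRHep-/-. In HFCF it stood at 23.9, 24.2 and 27.0 CPM in WT and at 32.4, 32.2 and 34.2 CPM in livers labelled HuRHep-/-. Elavl1 RNA was therefore higher in both groups labelled HuRHep-/- (log2 fold change 0.41, standard error 0.068, adjusted p = 0.0219 in chow, and 0.38, standard error 0.072, adjusted p = 0.0327 in HFCF, both from limma). This goes against the fall in RNA that the label would give, and each direction given for genotype rests on the labels alone. The counts are per gene and do not separate the floxed exons, so they do not settle whether the gene was deleted. By quantitative PCR, the paper reports efficient HuR depletion in its own knockout livers. Diet, feeding time and the deposited table cannot be told apart.

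In chow WT livers the levels of the subunit genes spread widely. Atp5g3, 1 of 3 genes for the c subunit that forms the rotor ring of complex V, stood highest at 682 CPM per kb, followed by the catalytic beta subunit Atp5b at 676 CPM per kb. The regulatory subunit Cox4i1 stood at 657 CPM per kb and Ndufa4 at 544 CPM per kb. The median gene of complex I stood at 106 CPM per kb, that of complex II at 167, that of complex III at 205, that of complex IV at 225 and that of complex V at 240 CPM per kb. Cycs, the mobile electron carrier, stood at 15.3 CPM per kb, and other transcripts share 31.8% of its 31-base words. Isoforms of other tissues were low. Cox4i2, the isoform of low oxygen, Cox6a2 and Cox8b, isoforms of heart and muscle, held at most 10 counts in any library and did not pass the filter on low counts, so that 81 of the 84 genes were tested. Cox6a2 and Cox8b had 0 to 4 counts per library and Cox4i2 1 to 10. Ndufa4l2, a paralogue of Ndufa4 induced by low oxygen, stood at 1.42 CPM per kb in chow WT and 2.24 CPM per kb in HFCF livers labelled HuRHep-/-, and Cox7a1, the heart and muscle isoform of Cox7a2, between 2.45 and 3.66 CPM per kb in the 4 groups. Muscle markers summed to at most 1.22 CPM in any library, and Ckm, Myh2 and Myh4 were not analysed here.

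The promoters of 4 genes on which the results below turn are shown from RefSeq (GRCm38.p6), 250 bases before to 50 after the transcription start. Cox5b was called lower in chow and HFCF livers labelled HuRHep-/-, Atp5sl in HFCF livers labelled HuRHep-/- and with HFCF in both genotypes, Atp5o with HFCF in both genotypes, and Sdhd with HFCF in livers labelled HuRHep-/-. Capitals mark matches to 1 of 4 motifs searched on both strands, GCGCANGCG (bound by NRF1), CCGGAAG (ETS family, including GABP), AANATGGCG (YY1) and TNAAGGTCA (ERR receptors).
Cox5b (chr1:36691237-36691536, plus strand): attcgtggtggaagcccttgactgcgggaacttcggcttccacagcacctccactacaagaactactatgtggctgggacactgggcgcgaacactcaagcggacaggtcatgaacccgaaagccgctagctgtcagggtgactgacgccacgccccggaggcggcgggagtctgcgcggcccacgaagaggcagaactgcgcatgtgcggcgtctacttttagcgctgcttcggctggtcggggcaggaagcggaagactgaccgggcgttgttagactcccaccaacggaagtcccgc
Atp5sl (chr7:25619164-25619463, plus strand): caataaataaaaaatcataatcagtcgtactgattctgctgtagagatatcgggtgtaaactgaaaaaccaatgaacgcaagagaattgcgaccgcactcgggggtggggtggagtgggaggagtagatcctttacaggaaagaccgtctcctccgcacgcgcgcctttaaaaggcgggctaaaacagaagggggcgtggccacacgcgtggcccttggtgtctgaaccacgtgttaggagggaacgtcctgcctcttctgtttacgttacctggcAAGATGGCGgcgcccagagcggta
Atp5o (chr16:91931581-91931880, minus strand): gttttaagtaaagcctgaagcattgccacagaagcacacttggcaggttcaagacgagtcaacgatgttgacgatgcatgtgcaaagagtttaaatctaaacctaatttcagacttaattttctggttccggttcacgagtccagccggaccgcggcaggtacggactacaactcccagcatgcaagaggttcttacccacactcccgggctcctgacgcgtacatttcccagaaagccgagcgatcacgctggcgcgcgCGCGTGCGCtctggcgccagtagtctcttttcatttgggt
Sdhd (chr9:50603800-50604099, minus strand): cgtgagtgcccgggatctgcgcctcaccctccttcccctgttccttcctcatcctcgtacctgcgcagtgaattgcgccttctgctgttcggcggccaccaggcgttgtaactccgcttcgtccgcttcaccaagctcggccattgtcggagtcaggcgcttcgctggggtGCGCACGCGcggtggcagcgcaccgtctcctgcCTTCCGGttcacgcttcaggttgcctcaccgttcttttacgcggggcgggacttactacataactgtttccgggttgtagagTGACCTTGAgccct
Cox5b held no match in this window. Atp5sl, which RefSeq lists as Dmac2 with 2 starts of which the upstream one is shown, held the YY1 letters, Atp5o the NRF1 letters, and Sdhd the letters of NRF1, ETS and ERR. Of 69 subunit genes with a promoter in the RefSeq tables, 30.4% held the NRF1 letters, 23.2% the ETS letters, 15.9% the YY1 letters and 4.3% the ERR letters. Of all 27025 genes with a promoter, 7.0%, 9.9%, 2.8% and 1.4% held them. A match is a description of letters and not a site, and no match says only that these letters are not in the window.

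**Figure D1:**
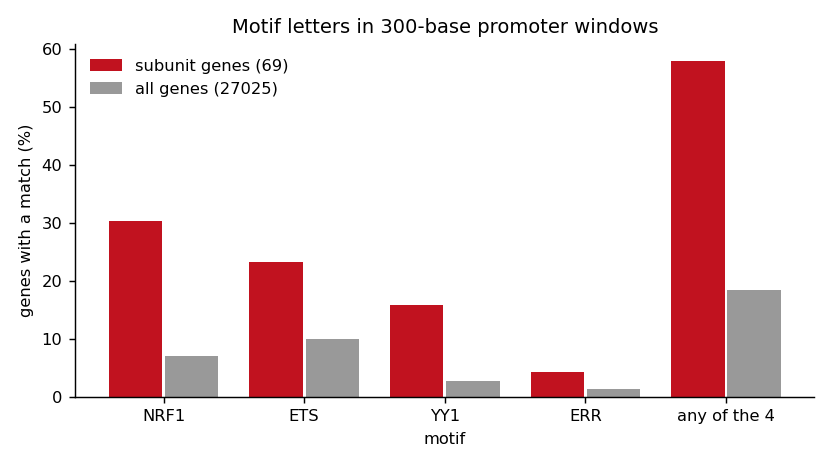
Bars give the percent of genes with at least 1 match to each motif in 300-base promoter windows, for 69 subunit genes and for all 27025 genes. At least 1 of the 4 motifs was found in 58.0% of subunit genes and 18.5% of all genes.

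In chow, Cox5b was the only subunit gene called lower in livers labelled HuRHep-/-. A gene is called here at an adjusted p of at most 0.05. That was 1 of the 81 tested subunit genes called lower, beside 1.91% of all genes tested, and 0 called higher beside 2.28% of all genes. At an unadjusted p of at most 0.05, 16 subunit genes (19.8%) were lower and 0 higher, beside 11.3% and 12.2% of all genes. limma with voom weights called 1 lower and 0 higher. The median log2 fold change over the 81 genes was -0.16, beside 0.01 over all 13526 genes tested, and 72 of 81 had a negative value. The medians were -0.18 for complex I, -0.06 for complex II, -0.18 for complex III, -0.16 for complex IV and -0.14 for complex V. In bulk tissue, fewer cells of a type and less RNA per cell cannot be told apart.

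Cox5b, a structural subunit of complex IV, stood at 178, 151 and 183 CPM in chow WT and at 114, 113 and 138 CPM in chow livers labelled HuRHep-/-. The 2 groups did not overlap. In limma, Cox5b fell by 0.49 on the log2 scale with a standard error of 0.10 (Benjamini-Hochberg adjusted p = 0.0442). The gene lies on the plus strand of GRCm38 at chr1:36691449-36693681, and 32.1% of its 31-base words are shared with the processed pseudogene Gm11273, which had 403, 259 and 369 raw counts in WT and 248, 214 and 220 in livers labelled HuRHep-/-, against 3656 to 5611 for Cox5b. Without chow WT replicate 1 or 3, or chow HuRHep-/- replicate 1 or 2, the adjusted p of Cox5b was 0.124, 0.134, 0.131 and 0.167, and 4 subunit genes were called lower without WT replicate 2 and 3 without HuRHep-/- replicate 3.

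The libraries within chow differed among themselves. Summed over the 84 genes, WT replicate 2 held 13820 CPM while WT replicates 1 and 3 held 15950 and 15740 CPM. In livers labelled HuRHep-/-, replicate 3 held 15110 CPM while replicates 1 and 2 held 13360 and 13200 CPM. The lowest WT library thus lay below the highest library of the other group. With a block for the replicate number the count called lower remained 1.

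**Figure D2:**
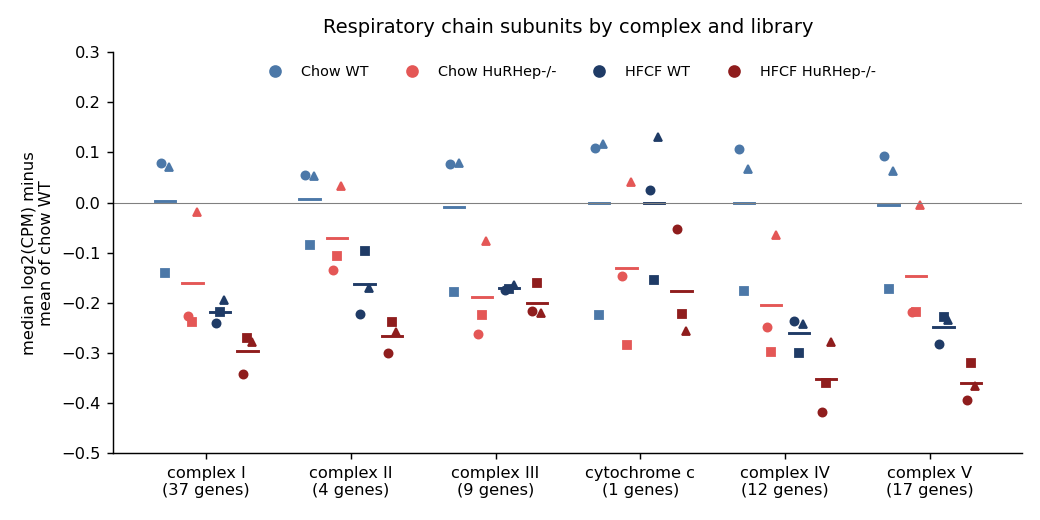
Points give, per library and complex, the median over 80 subunit genes with a mean above 1 CPM of log2 CPM minus the mean of chow WT, and bars the mean of 3 livers. Chow WT replicate 2 (square) lies below its group and chow HuRHep-/- replicate 3 (triangle) above its own, and HFCF livers labelled HuRHep-/- have the lowest mean for each of the complexes I to V.

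Complex I had 0 of 37 genes called in chow, with 9 lower and 0 higher at an unadjusted p of at most 0.05. Ndufs1, the largest subunit of its electron entry arm, stood at 101, 95.2 and 98.6 CPM in chow WT and 87.7, 88.8 and 105 CPM in chow livers labelled HuRHep-/- (log2 fold change -0.06, adjusted p = 0.671 from limma), and Ndufv1, the flavin-binding subunit, differed by -0.10 (adjusted p = 0.379). Ndufa7 had the lowest value of complex I, -0.29 (adjusted p = 0.0974). Ndufs4, whose loss gives a well-known model of complex I deficiency, differed by -0.09 (adjusted p = 0.574).

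Complexes II and III, cytochrome c and complex V likewise held no gene that passed in chow. The succinate dehydrogenase subunit Sdhd had a log2 fold change of 0.14 (adjusted p = 0.385), and Sdha, Sdhb and Sdhc had -0.07, -0.19 and -0.06 (adjusted p = 0.592, 0.236 and 0.655). Of complex III, Cyc1, Uqcrfs1 and Uqcrc1, which carry heme c1, the iron-sulphur centre and a core protein, had log2 fold changes of 0.07, 0.06 and 0.01. Cycs had -0.12. Atp5sl, a factor of complex I assembly despite its name, had -0.45 (adjusted p = 0.0624), and its adjusted p was 0.0343 without chow WT replicate 2 and 0.0484 without chow HuRHep-/- replicate 3. The lowest values after Cox5b were thus Atp5sl and Ndufa7, and the highest Cox6b2 (0.55), Ndufa4l2 (0.21) and Sdhd (0.14), which did not pass.

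In HFCF, 3 subunit genes fell in livers labelled HuRHep-/-, Cox5b, Atp5sl and Uqcrb. That was 3 of 81 called lower, beside 3.95% of all genes tested, and 0 of 81 called higher, beside 2.9% of all genes. At an unadjusted p of at most 0.05, 28 (34.6%) were lower and 3 (3.7%) higher, beside 15% and 14.5% of all genes. limma with voom weights called 2 lower and 0 higher. The median log2 fold change was -0.12 over the subunit genes and -0.00 over all 14295 genes tested, with 70 of 81 negative. The medians were -0.12 for complex I, -0.12 for complex II, -0.07 for complex III, -0.12 for complex IV and -0.13 for complex V.

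Cox5b stood at 141, 142 and 142 CPM in HFCF WT and at 107, 113 and 109 CPM in HFCF livers labelled HuRHep-/-, with no overlap. The log2 fold change was -0.38 (standard error 0.054, adjusted p = 0.0189). Atp5sl stood at 28.2, 37.9 and 28.7 CPM in HFCF WT and at 20.2, 22.2 and 21.9 CPM in livers labelled HuRHep-/-, again without overlap, and its log2 fold change was -0.56 (standard error 0.12, adjusted p = 0.0438). Atp5sl lies at chr7:25619414-25625551 on the plus strand. Uqcrb, a small subunit of complex III at the quinone-binding site, stood at 150, 151 and 148 CPM in HFCF WT and at 125, 131 and 128 CPM in livers labelled HuRHep-/- (log2 fold change -0.24, standard error 0.054, adjusted p = 0.0467), and 18.7% of its 31-base words are shared with Gm16089. Uqcrb lies at chr13:66900617-66905378 on the minus strand. Each of the 3 genes was lower in 3 of 3 livers, yet the sizes are small, from -0.24 to -0.56 on the log2 scale.

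In HFCF the deviations of same-numbered libraries were positively correlated, which does not establish that the replicate numbers are pairs. With the replicate number as a block Uqcrb had an adjusted p of 0.0626 while Cox5b and Atp5sl stayed called, so 2 subunit genes were called lower. With the same block Cox6b2, a testis isoform of Cox6b1 at 0.122 to 0.318 CPM in WT and 0.524 to 1.05 CPM in livers labelled HuRHep-/-, rose with a log2 fold change of 1.83 and an adjusted p of 0.0486, against 0.0546 without it. Its raw counts were 8, 4 and 10 in HFCF WT and 21, 31 and 39 in livers labelled HuRHep-/-. Without HFCF WT replicate 1 or any of the HuRHep-/- replicates, 0 subunit genes were called lower, and without HFCF WT replicate 2 or 3 it was 2. In those 4 fits the adjusted p was 0.0628 to 0.103 for Cox5b and 0.0807 to 0.15 for Atp5sl, while Uqcrb had 0.0636 to 0.171 with any 1 library left out. Uqcrb also missed the threshold with voom weights (0.0522), upper-quartile factors (0.0736), no filter (0.0674), at least 10 counts in every library (0.0503), the 12-library fit (0.118) and trends removed (0.161). Cox6b2 had an adjusted p of 0.0412 without HFCF WT replicate 3. Removing trends of length and GC content gave 9 subunit genes called lower, while the median of all genes moved from -0.00 to -0.08.

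**Figure D3:**
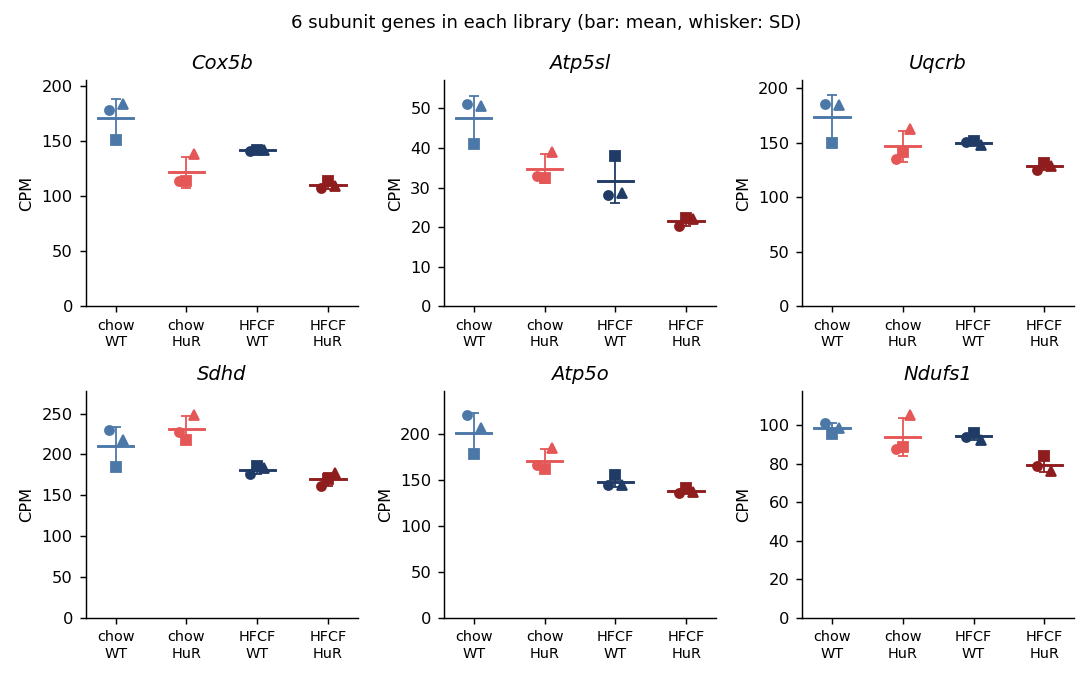
CPM per library for Cox5b, Atp5sl, Uqcrb, Sdhd, Atp5o and Ndufs1, with the mean (bar) and SD (whisker) of 3 livers in each group and the axis starting at 0. Cox5b in both diets, and Atp5sl and Uqcrb in HFCF, have lower values in livers labelled HuRHep-/- with no overlap, Atp5o is lower in HFCF in both genotypes, and Sdhd is lower in HFCF without overlap in livers labelled HuRHep-/- but not in WT.

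The other 78 subunit genes did not pass, some with values beyond that of Uqcrb. Ndufs1 stood at 94.0, 96.2 and 92.3 CPM in HFCF WT and 78.7, 83.9 and 76.1 CPM in livers labelled HuRHep-/- (log2 fold change -0.26, adjusted p = 0.0513), and Atp5a1, the alpha subunit of complex V, had -0.25 (adjusted p = 0.0902). The c subunit genes differed in sign, with Atp5g1 at 0.15 (adjusted p = 0.147), Atp5g2 at 0.19 (adjusted p = 0.0852) and Atp5g3 at -0.17 (adjusted p = 0.122). Atp5s (-0.45, adjusted p = 0.0941), Cox7a1 (0.39) and Ndufa4l2 (0.38) completed the extremes, beside Cox6b2. In HFCF 40 of 81 genes were lower in livers labelled HuRHep-/- with no overlap between groups and 6 were higher, beside 17.5% and 18.7% of all genes tested. In chow the counts were 7 and 1, beside 14.5% and 14.8%.

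The difference between the 2 genotype effects was then tested as an interaction over 12 libraries. Of 81 subunit genes, 0 were called higher and 0 lower, beside 0% and 0% of all 14535 genes tested, and limma with voom weights called 0 as well. At an unadjusted p of at most 0.05, 3 (3.7%) were higher and 0 lower, beside 7.0% and 7.33% of all genes. The median interaction was 0.07. It was 0.03 to 0.04 without chow WT replicate 1 or 3 or chow HuRHep-/- replicate 1 or 2, and 0.14 without chow WT replicate 2 or chow HuRHep-/- replicate 3. The genotype effects were not shown to differ between the diets for any subunit gene. Cox5b (0.13, adjusted p = 0.669) and Atp5sl (-0.09, adjusted p = 0.855) had the 2 effects side by side at -0.49 and -0.38, and at -0.45 and -0.56.

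**Figure D4:**
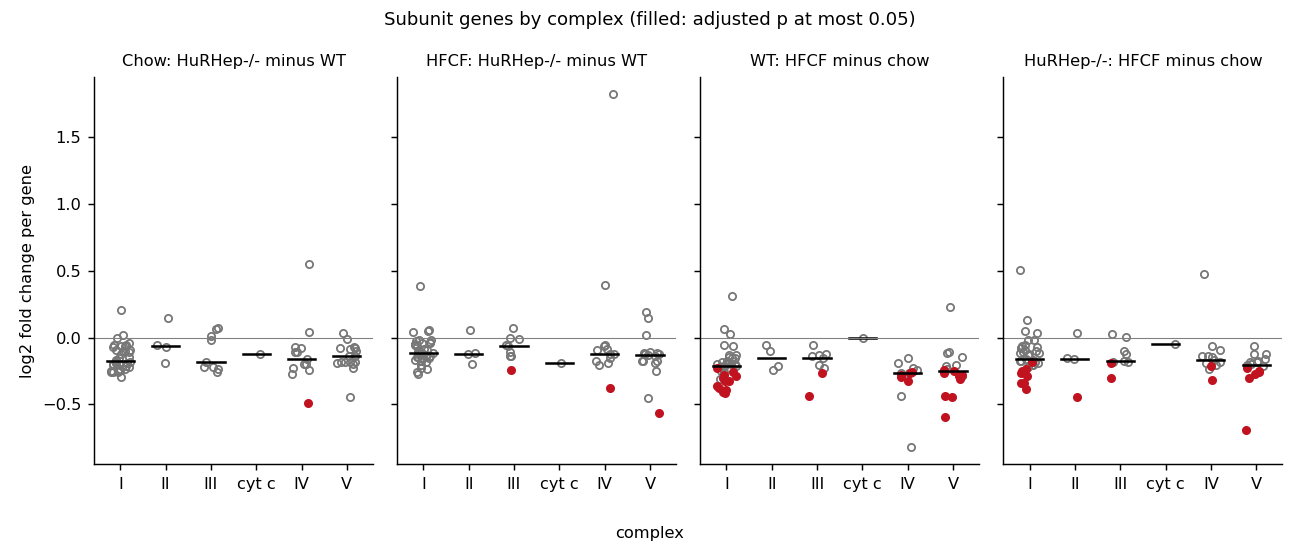
Each point is the log2 fold change of 1 subunit gene, filled where the adjusted p is at most 0.05, and black bars are the medians of each complex. The 81 tested genes lie mostly below 0 in all 4 comparisons, with 1 filled in chow genotype, 3 in HFCF genotype, 28 in WT diet and 20 in HuRHep-/- diet, all of them below 0.

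Diet was compared within each genotype in a fit over all 12 libraries, so its counts are not set against those of genotype. In WT livers, 28 of 81 subunit genes (34.6%) were called lower with HFCF, beside 12.9% of all genes tested, and 0 were called higher, beside 11.3%. At an unadjusted p of at most 0.05, 55 (67.9%) were lower and 0 higher, beside 19.4% and 18.5% of all genes, and voom weights called 27 lower and 0 higher. The median log2 fold change was -0.23 and 77 of 81 were negative, beside a median of 0.01 over all genes. The called genes were 12 of complex I, 0 of complex II, 2 of complex III, 5 of complex IV and 9 of complex V. Across single libraries left out, the count called lower ranged from 11 without chow WT replicate 1 to 58 without chow WT replicate 2, and it was 12 without chow WT replicate 3, 13 without HFCF WT replicate 1 or 3 and 21 without HFCF WT replicate 2. It was 13 in a fit on the 6 WT libraries and 18 with upper-quartile factors.

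In livers labelled HuRHep-/-, 20 of 81 (24.7%) were called lower with HFCF, beside 19.1% of all genes tested, and 0 higher, beside 19.7%. At an unadjusted p of at most 0.05, 30 (37.0%) were lower and 0 higher, beside 23.6% and 24.7% of all genes, and voom weights called 21 lower and 0 higher. The median log2 fold change was -0.17 beside 0.00, and 73 of 81 were negative. The median was -0.10 without chow HuRHep-/- replicate 3 and -0.09 with upper-quartile factors. Of complex I 9 were called, of complex II 1, of complex III 2, of complex IV 2 and of complex V 6. Without chow HuRHep-/- replicate 3 or HFCF HuRHep-/- replicate 1 the count was 7, and with upper-quartile factors it was 10. The subunit genes called lower in both diet comparisons numbered 14, of 28 in the WT list and 20 in the HuRHep-/- list. The overlap over all genes was not computed, so this count has no background to be read against. With length and GC trends removed, 52 were called lower in WT and 53 in livers labelled HuRHep-/-, and the median of all genes moved down with them, from 0.01 to -0.08 and from 0.00 to -0.16.

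In WT 32.4% of complex I, 0% of II, 22.2% of III, 38.5% of IV and 52.9% of complex V genes were called lower, beside 12.9% of all genes. In livers labelled HuRHep-/- the shares were 24.3%, 25%, 22.2%, 15.4% and 35.3%, beside 19.1% of all genes. Atp5o, the stalk subunit OSCP, stood at 220.0, 178 and 206 CPM in chow WT and at 145, 155 and 145 CPM in HFCF WT, and at 166, 162 and 185 CPM and 135, 141 and 137 CPM in livers labelled HuRHep-/- on the 2 diets. No library of one diet overlapped the other, and Atp5o fell by 0.44 (adjusted p = 0.00344) in WT and 0.31 (adjusted p = 0.0117) in livers labelled HuRHep-/-. Atp5sl fell by 0.60 in WT and by 0.69 in livers labelled HuRHep-/- (adjusted p = 0.00638 and 0.00177), the only subunit gene to pass a fold change of 1.5 as well in either diet comparison. Ndufb11, of the membrane arm of complex I, fell by 0.40 and 0.34 (adjusted p = 0.00531 and 0.00633), and Ndufv3 fell by 0.38 in WT (adjusted p = 0.00356). Ndufv1 fell by 0.28 in WT (adjusted p = 0.00806) and by 0.18 in livers labelled HuRHep-/- (adjusted p = 0.0359), the latter with 0.0639 to 0.134 without chow HuRHep-/- replicate 2 or 3 or HFCF HuRHep-/- replicate 1 or 3 and 0.051 with the replicate block, and likewise lost with upper-quartile factors (0.156), at least 10 counts in every library (0.0669) and the fit on 6 libraries (0.0564). Ndufb5 fell by 0.39 in livers labelled HuRHep-/- (adjusted p = 0.0089). Atp5g1 fell by 0.44 in WT (adjusted p = 0.00554), from 222, 177 and 218 CPM to 143, 156 and 154 CPM. In complex IV, Cox5b fell by 0.27 in WT (adjusted p = 0.0446), with 0.0707 to 0.155 without any 1 of the WT libraries other than chow replicate 2. It also missed the threshold with voom weights (0.0513), upper-quartile factors (0.0683), no filter (0.0547), at least 10 counts in every library (0.0521) and the fit on 6 libraries (0.0772). Cox4i1 (-0.23, adjusted p = 0.0594) and Cox5a (-0.15, adjusted p = 0.193) did not pass in the main fit. Cox4i1 was called with the replicate block (0.0446), with length and GC trends removed (0.0118) and without chow WT replicate 2 (0.0161).

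Sdhd, which anchors complex II in the membrane, stood at 228, 218 and 248 CPM in chow livers labelled HuRHep-/- and at 161, 170 and 177 CPM on HFCF, a fall of 0.45 (adjusted p = 0.00195). In WT it stood at 230.0, 185 and 217 CPM in chow and 176, 186 and 183 CPM in HFCF (-0.21, adjusted p = 0.0848), where the groups overlapped, and its adjusted p was 0.0131 without chow WT replicate 2. Whether the 2 diet effects on Sdhd differ is the same interaction term, -0.24 (adjusted p = 0.382). Ndufs1 in livers labelled HuRHep-/- fell by 0.24 (adjusted p = 0.0238), and Atp5a1 fell by 0.27 (adjusted p = 0.0125). In the main fit Atp5b (-0.21 in each genotype, adjusted p = 0.0735 and 0.0559), Uqcrc1 and Cycs did not pass in either. Atp5b was called in WT without HFCF WT replicate 2 (0.0155) and with trends removed (0.0389). In livers labelled HuRHep-/- it was called with voom weights (0.0410) and trends removed (0.00583), and Uqcrc1 with trends removed (0.00453). The adjusted p of Ndufs1 was 0.0873 without chow HuRHep-/- replicate 3 and 0.0678 and 0.0777 without HFCF HuRHep-/- replicate 1 and 3, and it was 0.0789 with upper-quartile factors and 0.0553 in the fit on 6 libraries, and that of Atp5a1 was 0.0537 without HFCF HuRHep-/- replicate 1.

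The other genes of mitochondrial energy conversion were counted beside these. The 13 subunits encoded in mitochondrial DNA held 106200 to 141700 CPM in chow livers and 99440 to 116700 CPM in HFCF livers. Of the 13, mt-Atp8 was called lower in HFCF livers labelled HuRHep-/- (log2 fold change -0.49, adjusted p = 0.0448), beside 3.95% of all genes. With diet in livers labelled HuRHep-/- 3 of 13 were called lower, mt-Nd5, mt-Nd4l and mt-Nd2 (-0.38, -0.40 and -0.44), beside 19.1% of all genes. With diet in WT 0 were called. Of 44 assembly factors tested, 1 was called higher and 1 lower in chow, 0 and 4 in HFCF, 2 and 1 with diet in WT and 2 and 7 with diet in livers labelled HuRHep-/-. All genes tested were called higher and lower at 2.28% and 1.91% in chow, 2.9% and 3.95% in HFCF, 11.3% and 12.9% with diet in WT and 19.7% and 19.1% with diet in livers labelled HuRHep-/-, and the counts of this and the following lists read against these shares. Timmdc1, which helps to assemble the membrane arm of complex I, was called lower in both genotype comparisons (-0.52 and -0.54, adjusted p = 0.0287 and 0.0315), Lyrm7, a chaperone of the complex III iron-sulphur protein, in HFCF (-1.45, adjusted p = 0.0166), together with Sco2, a copper chaperone of complex IV (-0.63, adjusted p = 0.0235), and Ndufaf4 (-0.48, adjusted p = 0.0321). Atpaf2, an assembly factor of complex V, was called higher in chow (0.56, adjusted p = 0.0123).

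Among 14 regulators of biogenesis tested, Tfb2m was called lower in HFCF livers labelled HuRHep-/- (-0.34, adjusted p = 0.0496) and 0 were called in chow. Ppargc1a, the coactivator PGC-1alpha, stood at 6.06, 3.68 and 6.60 CPM in chow WT and 10.3, 8.58 and 9.85 CPM in chow livers labelled HuRHep-/- (0.86, adjusted p = 0.0666), and it fell by 0.91 with HFCF in livers labelled HuRHep-/- (adjusted p = 0.0241). Gabpa had -0.37 in HFCF by genotype (adjusted p = 0.0558) and fell by 0.60 with diet in livers labelled HuRHep-/- (adjusted p = 0.000578). Nrf1, Esrra and Tfam had 0.19, -0.21 and 0.10 by genotype in chow, and 0.27, -0.26 and 0.03 in HFCF, none called. With diet, 2 of 14 regulators were called higher in WT, Ppara (0.59) and Esrrg (1.44), and 4 lower, among them Nrf1 (-0.34) and Tfam (-0.21). In livers labelled HuRHep-/- 0 were called higher and 7 lower, again with Nrf1 (-0.24) and Tfam (-0.26). Of the 13 citric acid cycle genes, Dlst, the E2 component of 2-oxoglutarate dehydrogenase, was called lower in chow and HFCF (-0.56 and -0.997, adjusted p = 0.0118 and 0.00226), and Cs, citrate synthase, was called higher in chow (0.42, adjusted p = 0.0286). Of the 13 porin and import genes, Tomm70a was called higher in chow (0.27, adjusted p = 0.0399) and 0 were called in HFCF. With diet, 2 citric acid cycle genes were called higher and 1 lower in WT, and 1 and 6 in livers labelled HuRHep-/-, while for import 0 and 1, then 1 and 3, were called.

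The subunit transcripts are short, with a median length of 863 bases against 2402 for all listed genes. In chow, genes under 1000 bases that are not subunits had a median genotype log2 fold change of -0.09, beside -0.19 for the 46 short subunit genes, and longer genes had 0.01 beside -0.10 for the 35 longer subunit genes. In HFCF the short other genes had 0.04 beside -0.12. Cytosolic ribosomal protein genes, short and abundant as well, had medians of -0.16 in chow, 0.10 in HFCF, -0.50 with diet in WT and -0.22 with diet in livers labelled HuRHep-/-. Of 81 tested, 75 and 41 were called lower in the 2 diet comparisons. The median difference between GC-rich and GC-poor genes also moved with the groups, from -0.167 to -0.039 in the chow libraries, -0.006 to 0.054 in HFCF WT and 0.133 to 0.178 in HFCF livers labelled HuRHep-/-. Removing trends of both also moved the median of all genes, so the subunit median is given relative to it. It was -0.17 before and -0.12 after in chow, -0.12 and -0.09 in HFCF, -0.24 and -0.20 with diet in WT, and -0.17 and -0.12 with diet in livers labelled HuRHep-/-.

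**Figure D5:**
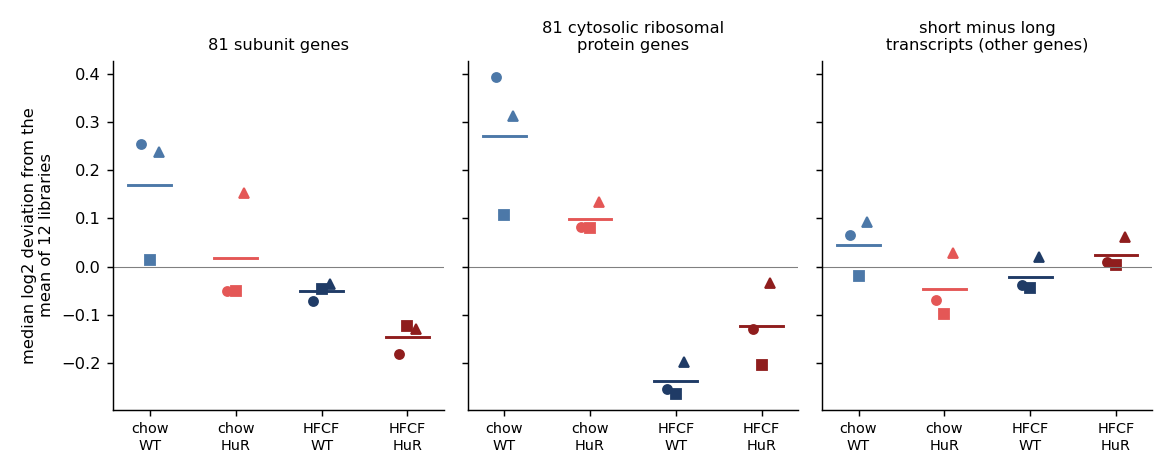
Each point is 1 library, and the y axis is the median log2 deviation from the mean of the 12 libraries for 81 subunit genes, for 81 cytosolic ribosomal protein genes, and for short (under 1000 bases) minus long (over 4000 bases) other transcripts. Chow WT replicates 1 and 3 are highest in the first 2 panels, at 0.25 and 0.24 for subunits and 0.40 and 0.31 for ribosomal proteins, and the subunits are lowest in HFCF livers labelled HuRHep-/-.

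Cell type markers differed between groups beside the subunits. By genotype 0 of the hepatocyte, macrophage, endothelial, stellate, lymphocyte and cholangiocyte markers were called in chow, and 1 hepatocyte, 1 stellate and 2 cholangiocyte markers in HFCF. The median log2 fold change by genotype in HFCF was 1.397 for cholangiocyte markers, 0.88 for lymphocyte markers and 0.73 for stellate markers, beside 0.01, -0.12 and 0.46 with diet in WT. For macrophage markers 8 of 8 log2 fold changes by genotype were positive in each diet (medians 0.50 and 0.61) and 0 were called. The 8 hepatocyte markers summed to 92170 to 113500 CPM in chow WT, 75500 to 82950 CPM in chow livers labelled HuRHep-/-, 65670 to 71590 CPM in HFCF WT and 59950 to 64220 CPM in HFCF livers labelled HuRHep-/-, with 4 of 8 called lower with diet in WT and 5 of 8 in livers labelled HuRHep-/-. Alb carried most of that sum, at a mean of 74060 CPM in chow WT and 52650 CPM in chow livers labelled HuRHep-/-, and 7 of 8 hepatocyte markers had a negative log2 fold change by genotype in chow, with a median of -0.14. The 8 macrophage markers summed to 162 to 211 CPM in chow WT, 232 to 330 CPM in chow livers labelled HuRHep-/-, 269 to 458 CPM in HFCF WT and 436 to 620 CPM in HFCF livers labelled HuRHep-/-, and 4 and 6 of 8 were called higher with diet. The 8 stellate markers summed to 132 to 200 CPM in chow and 167 to 464 CPM in HFCF, with 1 of 8 called higher with diet in WT and 8 of 8 in livers labelled HuRHep-/-. The 6 cholangiocyte markers summed to 35.1 to 87.4 CPM in the other groups and 133 to 242 CPM in HFCF livers labelled HuRHep-/-. Lymphocyte markers summed to 6.14 to 11.8 CPM in the other groups and 16.2 to 18.5 CPM in HFCF livers labelled HuRHep-/-, and endothelial markers to 98.2 to 131 CPM over all libraries. Of the fat markers, Cidea stood at no more than 0.196 CPM in any chow library, at 109, 7.24 and 76.2 CPM in HFCF WT and at 71.1, 44.4 and 35.2 CPM in HFCF livers labelled HuRHep-/-, and Fabp4 at 19.9, 5.74 and 21.5 CPM in HFCF WT, whereas Adipoq, Plin1 and Ucp1 stood at no more than 0.135 CPM in any library. None of the hepatocyte, macrophage and stellate markers was at 0 in all libraries. The part of these cells in the subunit values was not tested.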

How the data were processed

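RNA from 12 mouse livers (3 per group) was extracted with a Direct-zol kit and made into libraries with a NEBNext stranded kit. The authors deposited 2 tables of raw, unnormalized read counts for each gene, made with CLC Genomics Workbench by the study's methods and naming GRCm38.p6 in the submitters' notes. Shared 31-base words between transcripts are a guide to ambiguous counting. Cells with 1000 or more counts carried commas (21506 in chow, 23123 in HFCF) and were read as whole numbers with 0 exceptions. The values are counts, but limma on log2 CPM was chosen in place of a count test, which was not run. Library depth was 30071731 to 35949203 counts.

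From the counts, log2 CPM was computed with TMM factors (trims 0.3 and 0.05) and a pseudocount of 0.5, and tested with limma 3.58.1 in R 4.3.3 with a variance trend, two-sided, with Benjamini-Hochberg adjustment over all genes tested. A gene was tested where 3 libraries or more held the equivalent of 10 counts and the total reached 15. Genotype was tested within each table, and diet and the interaction on genes of both tables. A DEG also had a fold change of at least 1.5. Fits were also run on simulated data with larger changes than those of most subunit genes, and no result here rests on that run. With 3 against 3, an exact permutation test cannot give a p below 0.1, so p-values rest on limma. The labels do not say that replicates are separate litters or batches, and p-values measure the spread between these samples.

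The members and lists were chosen with earlier results of these data known. Genes were named by role, by being called for genotype, as the 3 highest and 3 lowest genotype values, and as the 5 smallest p in each diet comparison. The alternatives tried were other scaling factors (RLE, upper quartile), other filters, pseudocount 2, voom weights, the replicate block, removal of length and GC trends, other sample sets, DEG criteria, members sharing under 10% of sequence, and leaving out each library. Deviations of same-numbered WT and HuRHep-/- libraries had correlations of 0.181, 0.293 and 0.139 in HFCF and -0.007, 0.179 and 0.03 in chow. Between diets, replicate 1 of the livers labelled HuRHep-/- had 0.237, so such values do not establish a pairing.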

Additional observations from a re-analysis of the deposited data

How the results depend on the processing

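The signs of the medians held under every alternative run except the interaction, which was 0.07 and -0.01 with length and GC trends removed (0.07 and 0.05 relative to the median of all genes). The median with diet in livers labelled HuRHep-/- moved to -0.28 with those trends removed, a change that also moved the median of all genes from 0.00 to -0.16. Counts with trends removed stand beside downward moves of all genes in each comparison.

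For genes called lower by genotype in chow (1), the count was 0 without a filter on low counts, 3 on all 12 libraries, 0 by DEG criteria and 0 among members with little shared sequence, and 0 to 4 with single libraries left out. In HFCF (3 lower) it was 9 with length and GC trends removed, 0 by DEG criteria and 1 among members with little shared sequence, and 0 to 2 with single libraries left out. Genes called higher in HFCF (0) were 1 with a replicate block, with trends removed and on all 12 libraries, and 0 to 1 with single libraries left out. With diet in WT (28 lower) the count was 18 with upper-quartile factors, 52 with trends removed, 13 on the 6 libraries of that genotype, 1 by DEG criteria and 17 among members with little shared sequence, and 11 to 58 with single libraries left out. With diet in livers labelled HuRHep-/- (20 lower) it was 10 with upper-quartile factors, 53 with trends removed and 1 by DEG criteria, and 7 to 22 with single libraries left out, and genes called higher (0) were 1 with upper-quartile factors and on the 6 libraries of that genotype. Upper-quartile factors gave 61 subunit genes lower and 20 higher by genotype in HFCF, and 63 and 18 with diet in livers labelled HuRHep-/-. These factors moved the median of all genes to 0.05 and 0.08, and relative to it the subunit medians stayed at -0.12 and -0.17. The cause of the other changes was not tested.

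The replicate block gave 1 lower in chow, 2 in HFCF, 35 with diet in WT and 22 with diet in livers labelled HuRHep-/-. By the labels, same-numbered libraries share only a number in every comparison. Among the 30 named subunit genes tested, the only ones recomputed singly, 38 calls were lost and 13 gained with a library left out. In the other alternatives 22 were lost and 27 gained. No gene called in the main fit or in the alternative changed sign. Sign changes of genes called in neither were not counted. Cox6b2, Cox7a1 and Ndufa4l2 rest on few counts per library (4 to 39, 26 to 74 and 26 to 85), and the effect of depth on the other genes was not tested.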
